A study of Mus musculus with 6 samples.

Results

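The genes described here encode 10 chains of the receptors for interferon gamma (Ifngr1, Ifngr2), type I interferons (Ifnar1, Ifnar2), interleukin-10 (Il10ra, Il10rb), interleukin-6 (Il6ra, Il6st) and interleukins 4 and 13 (Il4ra, Il13ra1). They were taken by symbol from a deposited table of 55401 genes, in which all 10 were found, and all 10 were among the 16256 genes that passed the filter on low counts. RNA was sequenced from mouse macrophages grown from bone marrow of C57BL/6 mice with the growth factor M-CSF at 40 ng/mL for 7 days. Of the 6 libraries, 3 are labelled Mettl3-/- (KO), which means loss of the enzyme that writes N6-methyladenosine on messenger RNA, and 3 are labelled wild type (WT). The sources used here do not say how the allele was made, which treatment followed growth, or whether replicates came from separate mice. The p-values therefore cover the spread among these libraries alone, which may be technical.

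Each of these receptors is built from a chain that grips the cytokine and a partner chain, and Janus kinases sit on the tails of the signalling chains. The interleukin-6 receptor differs, since its kinases are carried by gp130 and not by the chain that binds the ligand. Binding brings the chains together, the kinases phosphorylate the tails, and STAT proteins that dock there move to the nucleus. Macrophages use interferon gamma receptors for activation, interleukin-10 receptors for restraint, and interleukin-4 and interleukin-13 receptors for the alternative activation state. Il10rb is shared with receptors for interleukin-22 and interferon lambda, and Il6st, the gp130 chain, is shared across the interleukin-6 family.

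Library totals ran from 67280390 to 77997742 estimated counts, and the chains had 2360 to 60257 counts per library. Mettl3, the targeted gene, read 2.5, 2.56 and 2.93 FPKM (fragments per kilobase of transcript, scaled to library size) in the libraries labelled KO, against 2.62, 2.91 and 2.26 FPKM in WT libraries (log2 fold change 0.02, edgeR adjusted p = 0.93). Tox4, which is antisense to it, covers 18.4% of its exonic sequence. Tox4 had counts of 11251, 9737 and 11576 in labelled KO and 9318, 9494 and 9448 in WT. Mettl3 had counts of 1076, 1002 and 1309 in labelled KO and 1010, 1133 and 887 in WT. How much of the Mettl3 value comes from Tox4 reads was not tested. The Mettl3 value did not follow the genotype label, so directions below are those of the libraries labelled KO. All 10 macrophage markers listed were above 1 FPKM in both groups. Their summed level was 8670 to 8770 FPKM in labelled KO and 16600 to 17000 FPKM in WT, with 4 markers called higher and 2 lower. The 2 called lower were Lyz2, the lysozyme gene (6010 FPKM in labelled KO and 14200 FPKM in WT), and Adgre1 (396 and 492 FPKM). Called higher in labelled KO were Csf1r (687 FPKM against 569 FPKM in WT) and Fcgr1 (236 against 172 FPKM). So were Mertk (97.3 against 77.2 FPKM) and Spi1 (111 against 96.4 FPKM). The lower sum thus came mainly from Lyz2, and the list did not fall as a set. Markers of other cells summed to less than those of macrophages. T and NK cell markers summed to 10.0 to 10.8 FPKM in labelled KO and 8.12 to 8.64 FPKM in WT. Of these 8, 4 were above 1 FPKM in labelled KO and 3 in WT. Neutrophil markers summed to 52.0 to 62.4 FPKM in labelled KO and 61.3 to 66.4 FPKM in WT, with 1 called higher and 1 lower. The highest of them, S100a9, read 29.1 FPKM in labelled KO and 35.5 FPKM in WT, above some of the receptor chains. The erythroid and megakaryocyte list summed to 134 to 145 FPKM in labelled KO and 177 to 183 FPKM in WT, nearly all from Pf4, which macrophages also express (141 FPKM in labelled KO and 180 FPKM in WT). B cell, dendritic cell, mast cell, stromal and endothelial lists each summed to at most 7.57 FPKM in every library, and Siglech, Fcer1a, Mcpt4, Hba-a1 and Hbb-bs had a count of 0 in all libraries. The part of other cell types in the results was not tested, and in bulk RNA a smaller share of one cell type cannot be told apart from less RNA per cell.

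Of the 10 receptor chains, 3 rose in the libraries labelled KO: Il4ra, Il13ra1 and Ifnar2. Of all tested genes, 12.7% were called, 7.01% higher and 5.67% lower (edgeR's quasi-likelihood test, Benjamini-Hochberg adjusted p under 0.05). All 10 chains were among 5595 tested genes with a mean count of at least 2000. Of those with replicates of each group less than 1.5-fold apart, 28.3% were called, and 1.43% of the rest. The shares of all tested genes given here and below are not matched for read count. None of the 10 was called lower over all 6 libraries by edgeR, DESeq2 or limma, and at an unadjusted p under 0.05, which 26.5% of all tested genes had, the same 3 were higher and 0 were lower. The count was also 3 with DESeq2, where 20.3% of genes were called, and without a filter on low counts, where 6.84% were. It was 2 with a minimum of 1.2-fold (7.43% of genes) and 2 with replicate number as a block (6.23% of genes). With 1 library left out it was 2 or 3, always Il4ra and Il13ra1, with Il10ra as the third without KO replicate 2, Ifnar2 without WT replicate 1, and Ifnar1, called lower, without WT replicate 3. These counts stood beside 7.47%, 7.97% and 7.6% of genes without KO replicates 1, 2 and 3, and 7.78%, 7.41% and 7.78% without WT replicates 1, 2 and 3. The log2 fold change was above 0 for 8 of the 10, where 49.3% of all tested genes were above 0. The median was 0.13 for the chains and 0.00 for all tested genes. The FPKM of the labelled KO libraries lay wholly above that of the WT libraries for the same 3 chains and for no other, where 33.8% of tested genes had groups that did not overlap. An exact permutation test of 3 against 3 libraries cannot go below p = 0.1.

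**Figure D1:**
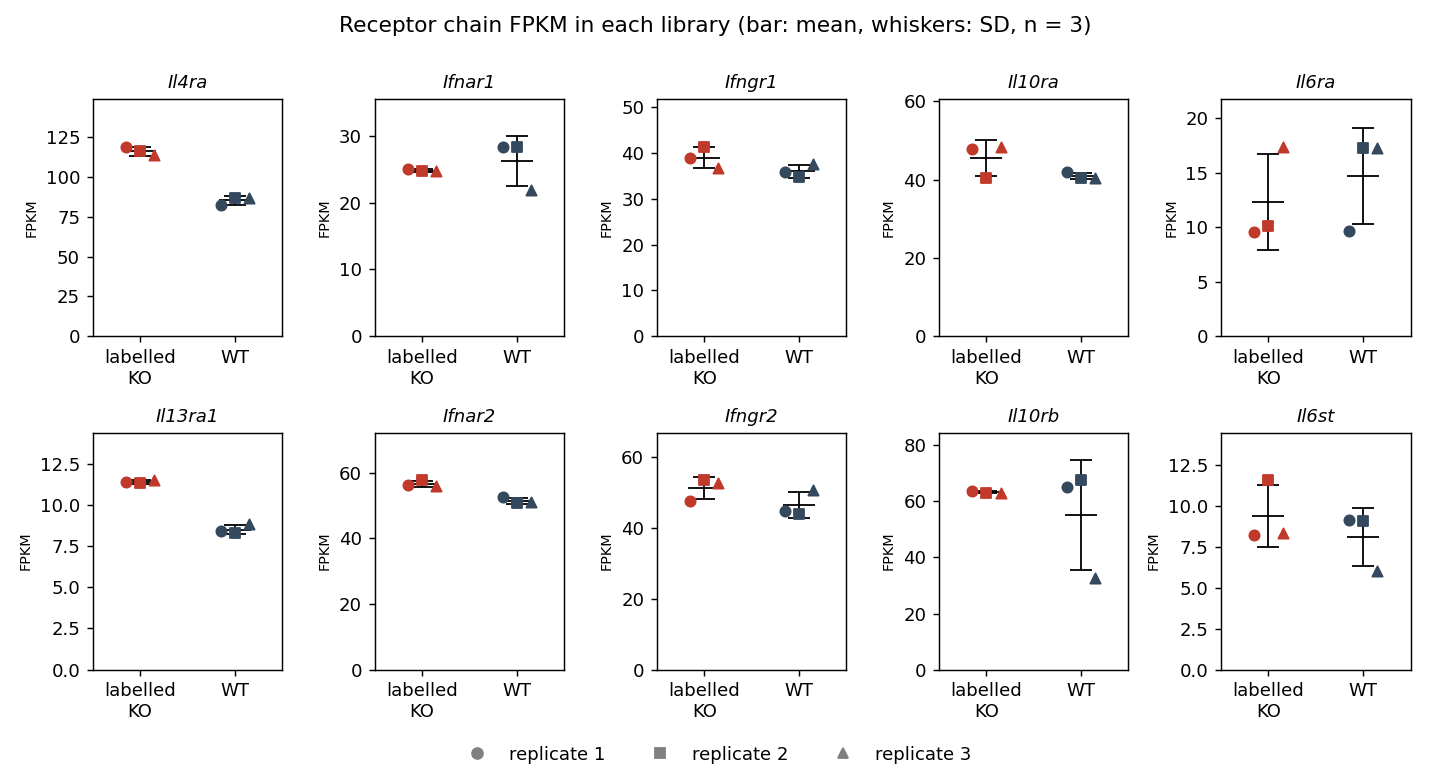
FPKM of the 10 receptor chains in each library, with labelled KO in red on the left and WT in dark blue on the right of each panel; bars are means and whiskers SD (n = 3), and each axis starts at 0. Il4ra, Il13ra1 and Ifnar2 have groups that do not overlap, whereas Il10rb in WT replicate 3 (32.5 FPKM) and Il6ra in both groups stand apart from their replicates.

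The stretches before the starts of the 3 genes called are shown because these are the chains whose transcripts changed. They come from RefSeq on GRCm38.p6, on the plus strand, and end before the gene's start in the deposited table. Capitals mark a STAT palindrome (TTC and GAA with 3 bases between them, the form bound by several STAT proteins) or a GC box (GGGCGG), searched on both strands.
Il4ra, chr7:125552021-125552119: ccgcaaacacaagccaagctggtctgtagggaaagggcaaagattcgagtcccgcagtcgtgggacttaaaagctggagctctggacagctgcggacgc
Il13ra1, chrX:36111858-36112107: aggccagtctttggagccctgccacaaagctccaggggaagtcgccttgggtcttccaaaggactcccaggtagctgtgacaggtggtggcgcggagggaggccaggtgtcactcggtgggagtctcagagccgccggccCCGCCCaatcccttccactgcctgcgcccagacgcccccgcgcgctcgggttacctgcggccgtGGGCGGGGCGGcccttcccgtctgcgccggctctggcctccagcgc
Ifnar2, chr16:91372533-91372782: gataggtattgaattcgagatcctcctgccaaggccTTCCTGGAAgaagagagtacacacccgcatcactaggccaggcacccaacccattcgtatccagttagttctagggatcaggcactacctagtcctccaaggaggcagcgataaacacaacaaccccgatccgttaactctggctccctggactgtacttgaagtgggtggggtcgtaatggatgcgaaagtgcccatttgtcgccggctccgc
That palindrome stood in the 250-base window of Ifnar2, beginning 214 bases before the start, and in 7.02% of all 32851 such windows. It was in 1 of the 8 receptor chain windows in the table, which has none for Il10ra and Il10rb. TTC and GAA with 4 bases between them, the spacing that STAT6 prefers, were in the window of Ifngr2 and in 5.85% of all windows, and a repeat of GAAA after 2 bases, as in interferon-response elements, was in none of the 8 and in 2.98% of all. GGGCGG was in 6 of the 8, including Il4ra and Il13ra1, and in 32.7% of all windows. The copy of Il4ra lies beyond the stretch printed, inside the gene as deposited. Neighbouring copies can overlap within a GC-rich run. GC content was 54.0% to 74.0% in the 8 windows, and the median of all windows was 52.4%.

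Il4ra and Il13ra1, which together form the receptor that answers both interleukin-4 and interleukin-13, rose by similar amounts. Il4ra (ENSMUSG00000030748, mm10 chr7:125552120-125579474, plus strand) encodes the signalling chain that docks STAT6. It read 119, 116 and 114 FPKM in the libraries labelled KO and 82.1, 87.0 and 86.6 FPKM in WT. Every labelled KO library was above every WT library, and the means were 116 ± 2.75 and 85.2 ± 2.7 FPKM (SD, n = 3 each). This was a log2 fold change of 0.43 (SE 0.029, 95% limits 0.36 and 0.50, edgeR adjusted p = 0.00038), a ratio of 1.35. Il4ra shares 571 of its annotated exonic bases, 9.51%, with Gm44876 on the opposite strand, which had a count of 4 in WT replicate 2 and 0 elsewhere.

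Il13ra1 (ENSMUSG00000017057, mm10 chrX:36112110-36171259, plus strand) encodes the chain that binds interleukin-13 and pairs with the Il4ra product. It read 11.4, 11.3 and 11.5 FPKM in the libraries labelled KO, against 8.4, 8.3 and 8.81 FPKM in WT. The groups did not overlap, and the 3 labelled KO values lay within 1.02-fold of each other. As a log2 fold change this was 0.40 (SE 0.042, 95% limits 0.30 and 0.50, edgeR adjusted p = 0.00212), a ratio of 1.32. The X-linked RNA Xist read 16.7 to 17.6 FPKM in labelled KO and 17.1 to 17.3 FPKM in WT (log2 fold change -0.03, edgeR adjusted p = 0.52). The Y-linked genes Kdm5d, Eif2s3y and Uty were called lower in labelled KO and Ddx3y was not called, as given below. Whether the groups differ in the sex of their cells was not tested. Il2rg, the common gamma chain and the other partner of the Il4ra product, read 339 ± 1.77 FPKM in labelled KO and 341 ± 3.62 FPKM in WT (SD, n = 3 each) and was not called (log2 fold change -0.03, edgeR adjusted p = 0.303). Il13ra2, which encodes a decoy for interleukin-13, had a count of 0 in every library. The calls of Il4ra and Il13ra1 held in each of the 15 alternatives tried.

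**Figure D2:**
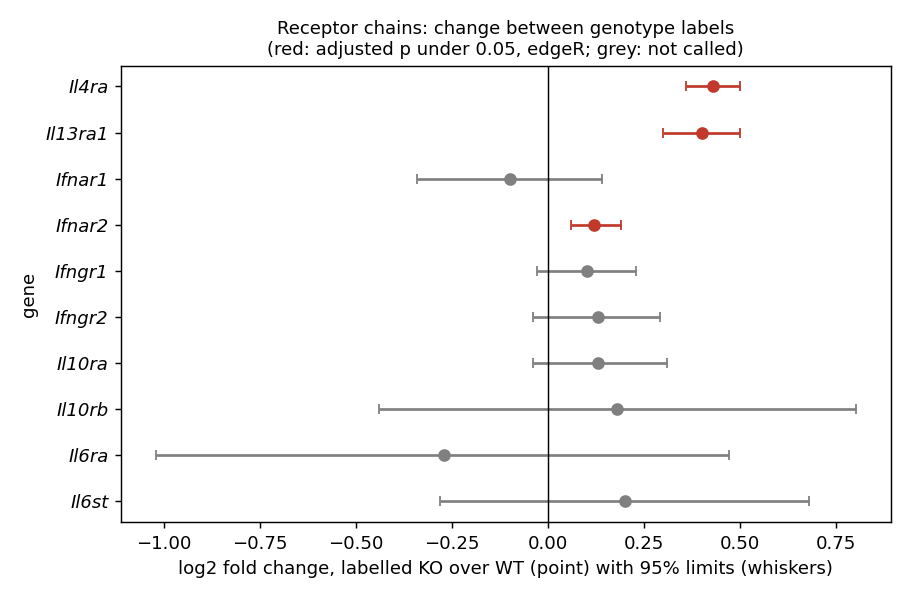
Change of each receptor chain between labelled KO and WT, as log2 of KO over WT (points), with 95% limits (whiskers), grouped by receptor from top to bottom; red marks an adjusted p under 0.05. Il4ra (0.43) and Il13ra1 (0.40) lie farthest above 0, Ifnar2 (0.12) has narrow limits, and Il10rb, Il6ra and Il6st have the widest.

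Of the type I interferon receptor chains, Ifnar2 rose by a small amount and Ifnar1 was not called. Ifnar2 (ENSMUSG00000022971, mm10 chr16:91372783-91405589, plus strand) encodes the chain with high affinity for interferon alpha and beta. It read 56.2, 57.8 and 56.0 FPKM in the libraries labelled KO and 52.5, 50.7 and 51.1 FPKM in WT, with no overlap. Ifnar2 shares 315 of its annotated exonic bases, 9.46%, with Gm21970 on the same strand. Gm21970 had a count of 243 in WT replicate 2, where Ifnar2 was lowest, and 0 in the other libraries. Whether reads were divided between these genes was not tested. On the log2 scale the change of Ifnar2 was 0.12 (SE 0.026, 95% limits 0.06 and 0.19, edgeR adjusted p = 0.0289), a ratio of 1.09. The direction held in every alternative. The call was lost when WT replicate 2, WT replicate 3 or any 1 of the labelled KO libraries was left out, in fits that hold fewer samples (edgeR adjusted p 0.0714 to 0.0894).

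Ifnar1 (ENSMUSG00000022967, mm10 chr16:91485238-91507441, plus strand) encodes the chain that carries the kinase TYK2. It read 25.1, 24.7 and 24.7 FPKM in the libraries labelled KO and 28.4, 28.4 and 21.9 FPKM in WT. WT replicate 3 was below all labelled KO libraries and the other WT libraries were above them. Over all 6 libraries the log2 fold change was -0.10 (SE 0.1, 95% limits -0.34 and 0.14, edgeR adjusted p = 0.606). Without WT replicate 3 it was -0.21 and called (edgeR adjusted p = 0.0138), and it was -0.04 without WT replicate 1 or 2.

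The interferon gamma receptor chains differed by less than the replicate spread could resolve. Ifngr1 (ENSMUSG00000020009, mm10 chr10:19591949-19610229, plus strand) encodes the ligand-binding chain. It read 38.9, 41.4 and 36.8 FPKM in the libraries labelled KO and 35.8, 34.7 and 37.5 FPKM in WT. Labelled KO replicate 3 fell inside the WT range and the other labelled KO libraries lay above it. Ifngr1 had a log2 fold change of 0.10 (95% limits -0.03 and 0.23, edgeR adjusted p = 0.294). Ifngr2 (ENSMUSG00000022965, mm10 chr16:91547072-91565623, plus strand) encodes the chain that brings JAK2. It read 47.6, 53.4 and 52.6 FPKM in the libraries labelled KO and 44.7, 43.9 and 50.5 FPKM in WT, with labelled KO replicate 1 below WT replicate 3. Ifngr2 had a log2 fold change of 0.13 (95% limits -0.04 and 0.29, edgeR adjusted p = 0.304). For both, a ratio above 1.22 or below 0.975 lay outside the 95% limits.

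The interleukin-10 receptor chains were not called, and in each a single library moved the value. Il10ra (ENSMUSG00000032089, mm10 chr9:45253837-45269149, minus strand) encodes the ligand-binding chain that docks STAT3. It read 47.7, 40.3 and 48.4 FPKM in the libraries labelled KO and 41.9, 40.5 and 40.4 FPKM in WT. Labelled KO replicate 2 sat at the WT level and the other labelled KO libraries lay above it. The log2 fold change was 0.13 (SE 0.071, edgeR adjusted p = 0.294), and without labelled KO replicate 2 it was 0.21 and called (edgeR adjusted p = 0.0192).

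Il10rb (ENSMUSG00000022969, mm10 chr16:91406164-91425834, plus strand) encodes the accessory chain. It read 63.6, 63.0 and 62.9 FPKM in the libraries labelled KO, and 65.0, 67.6 and 32.5 FPKM in WT. WT replicate 3 stood far below its replicates, which differed from it by up to 2.08-fold, whereas the labelled KO values spanned 1.01-fold. Il10rb had a log2 fold change of 0.18 (SE 0.26, 95% limits -0.44 and 0.80, edgeR adjusted p = 0.721), and without WT replicate 3 it turned to -0.09 (edgeR adjusted p = 0.15). Il10rb shares 569 of its annotated exonic bases, 14.9%, with Gm21970, a transcript on the same strand that also spans the end of Ifnar2. Gm21970 had a count of 243 in WT replicate 2 and 0 in the other libraries, WT replicate 3 included.

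The interleukin-6 receptor chains spread widely within both groups and were not called. Il6ra (ENSMUSG00000027947, mm10 chr3:89864059-89913196, minus strand) encodes the ligand-binding chain, which is also shed in soluble form. It read 9.54, 10.1 and 17.4 FPKM in the libraries labelled KO and 9.61, 17.3 and 17.3 FPKM in WT. The values lay near 2 levels, each seen in both groups, with labelled KO replicates 1 and 2 and WT replicate 1 at the lower. Il6ra had a log2 fold change of -0.27 (SE 0.31, 95% limits -1.02 and 0.47, edgeR adjusted p = 0.649). It was -0.61 without KO replicate 3, -0.50 without WT replicate 1 and -0.12 to -0.14 without any 1 of the other libraries, with no call. The table sums 2 annotated Il6ra transcripts of 8639 and 3343 bases and does not tell them apart. Gm42809, on the opposite strand, shares 242 Il6ra exonic bases (2.8%) and had counts of 13, 6 and 12 in labelled KO and 0 in each WT library.

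Il6st (ENSMUSG00000021756, mm10 chr13:112464070-112510086, plus strand) encodes the signalling chain gp130. It read 8.23, 11.6 and 8.38 FPKM in the libraries labelled KO and 9.18, 9.09 and 6.05 FPKM in WT. Labelled KO replicate 2 was the highest and WT replicate 3 the lowest, and the groups overlapped. The log2 fold change was 0.20 (SE 0.2, 95% limits -0.28 and 0.68, edgeR adjusted p = 0.604), and it was 0.02 without labelled KO replicate 2 and 0.03 without WT replicate 3. Among 5595 tested genes with a mean count of at least 2000, 7.49% had replicates of a group at least 1.5-fold apart, and Il10rb, Il6ra and Il6st were among them. The median coefficient of variation of these genes was 3.27% in labelled KO and 3.41% in WT. What sets these 3 chains apart between replicates was not tested.

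Ifnar2, Il10rb, Ifnar1 and Ifngr2 lie in that order on the plus strand of chromosome 16 within 193 kb, and Il10rb starts 574 bases after Ifnar2 ends. Ifnar2 was called, at a log2 fold change of 0.12, and Il10rb, Ifnar1 and Ifngr2 were at 0.18, -0.10 and 0.13 without a call. The 95% limits of these 3 neighbours all include the value of Ifnar2, and whether the 4 genes differ in their change was not tested. WT replicate 3 held the lowest value of its group for Il10rb and Ifnar1 and the highest for Ifngr2.

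**Figure D3:**
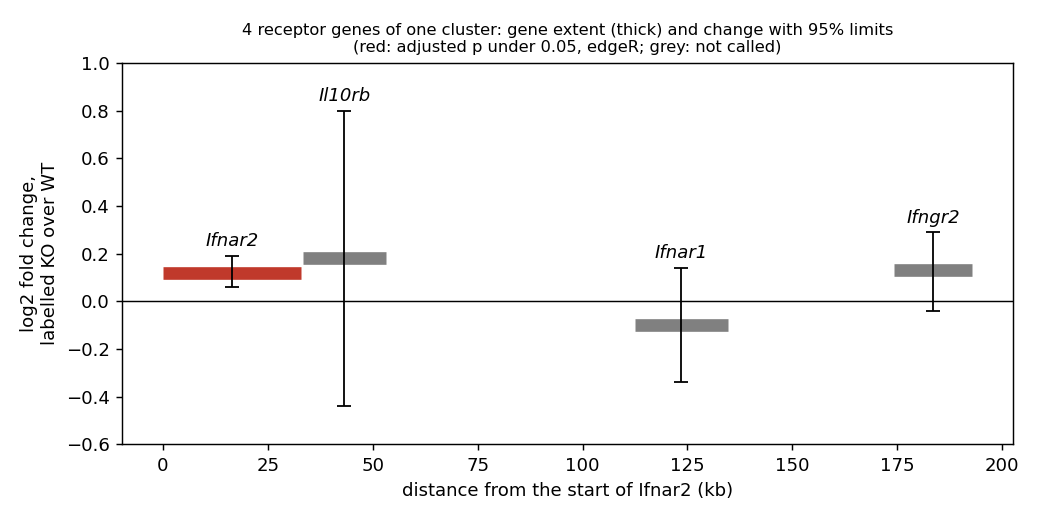
The 4 receptor genes of the chromosome 16 cluster by distance from the start of Ifnar2 in kb (thick bars, gene extent) against the log2 ratio of labelled KO to WT, with 95% limits as whiskers. Ifnar2 in red is called; the limits of Il10rb, Ifnar1 and Ifngr2 in grey include 0.

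By FPKM, which is scaled for length, Il4ra had the highest level of the 10 in both groups, at the 97.8th percentile of tested genes in labelled KO and the 96.9th in WT. Il10rb, Ifnar2, Ifngr2, Il10ra, Ifngr1, Ifnar1, Il6ra, Il13ra1 and Il6st followed by mean FPKM, in the same order in both groups. In labelled KO the ranges of neighbours overlapped for Ifngr2 and Il10ra, Il10ra and Ifngr1, Il6ra and Il13ra1, and Il13ra1 and Il6st. In WT they overlapped for Il10rb and Ifnar2 and for Il13ra1 and Il6st. The highest mean was 12.3 times the lowest in labelled KO and 10.5 times in WT. The lowest chain, Il6st, was at the 74.2nd percentile in labelled KO and the 71.9th in WT.

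The balance between the chains of a receptor was compared as the ratio of their FPKM in each library. Il4ra over Il13ra1 was 10.5, 10.3 and 9.89 in labelled KO and 9.77, 10.5 and 9.83 in WT, so both chains were higher at nearly the same ratio (difference in mean log2 ratio 0.03, exact two-sided permutation p = 0.5, adjusted over 5 pairs 0.833). Ifnar1 over Ifnar2 was 0.447, 0.427 and 0.441 in labelled KO and 0.542, 0.56 and 0.429 in WT. The difference was -0.21 (exact permutation p = 0.3, adjusted 0.833), and WT replicate 3 alone lay among the labelled KO values. Ifngr1 over Ifngr2 was 0.699 to 0.818 in labelled KO and 0.743 to 0.8 in WT (difference -0.03, exact permutation p = 0.8, adjusted 0.9). Il10ra over Il10rb was 0.639 to 0.77 in labelled KO, against 0.644, 0.599 and 1.24 in WT (difference -0.13, exact permutation p = 0.9, adjusted 0.9). Il6ra over Il6st ran from 0.866 to 2.07 in labelled KO and from 1.05 to 2.86 in WT (difference -0.48, exact permutation p = 0.5, adjusted 0.833). No pair could pass the threshold at this size, since 0.1 is the smallest p possible.

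**Figure D4:**
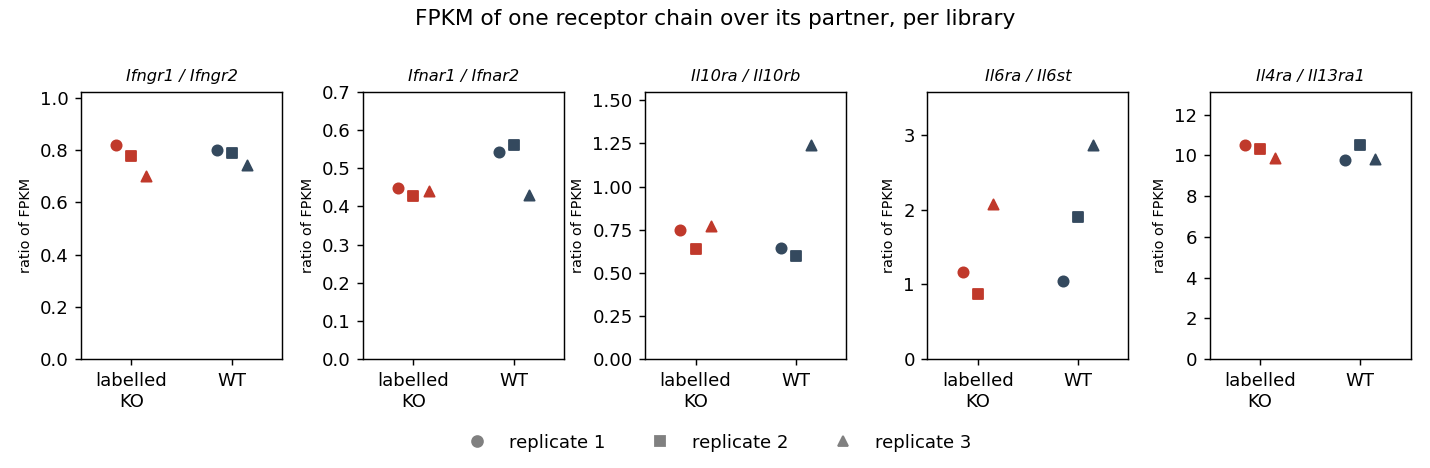
FPKM of a receptor chain divided by that of its partner, per library, with labelled KO in red left of WT in dark blue; marker shapes give the replicate. Il4ra over Il13ra1 lies between 9.77 and 10.5 in all 6 libraries, and WT replicate 3 stands apart for Ifnar1 over Ifnar2 (0.429) and Il10ra over Il10rb (1.24).

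Among the cytokines that use these receptors, few transcripts were abundant. Il27 had the highest level, at 9.72 FPKM in labelled KO and 8.39 FPKM in WT (edgeR adjusted p = 0.191). Osm read 5.03 FPKM in labelled KO and 4.75 FPKM in WT (edgeR adjusted p = 0.755), and neither was called. Of 21 ligand genes, 9 passed the filter on low counts and 1, Cntf, which encodes a relative of interleukin-6 acting through gp130, was called, which is 11.1% beside 12.7% of all tested genes. Cntf had counts of 65, 32 and 19 in the libraries labelled KO and 0, 0 and 1 in WT, too few in WT for a fold. Il10 read 4.73 ± 0.146 FPKM in labelled KO and 5.99 ± 0.985 FPKM in WT (SD, n = 3 each) and was not called (edgeR adjusted p = 0.14). Il4 read 0.872 FPKM in labelled KO and 1.35 FPKM in WT and was not called (edgeR adjusted p = 0.0855). With limma on log2(FPKM + 1), Il4 was called lower (adjusted p = 0.0486) and Cntf was not called (adjusted p = 0.0602). Il13 had a count of 0 in every library. Ifng, the ligand of the interferon gamma receptor, read 0.287 FPKM in labelled KO and 0.354 FPKM in WT (edgeR adjusted p = 0.667). Ifnb1, a type I interferon gene, had counts of 4 to 29 per library and was not called either (edgeR adjusted p = 0.436).

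Of 24 tested genes listed as other chains of these receptor families, 7 were called higher and 1 lower in labelled KO, and the median log2 fold change was 0.16. Called genes were 33.3% of these, beside 12.7% of all tested genes. The 7 include Ebi3 (0.25, edgeR adjusted p = 0.0144), which encodes a secreted cytokine subunit and not a receptor chain; without it 6 of 23 were called higher and 1 lower, 30.4%. Csf2rb2, a beta chain for interleukin-3, rose to 126 ± 0.215 FPKM in labelled KO, against 96.3 ± 0.72 FPKM in WT (SD, n = 3 each; log2 fold change 0.37, edgeR adjusted p = 5.23e-05). Its sequence is close to that of Csf2rb, so reads can be shared between the pair. Csf2rb is also among the 7 (log2 fold change 0.53, edgeR adjusted p = 0.0404), so these calls may not be separate. Lifr, the receptor for leukaemia inhibitory factor that pairs with gp130, rose by 0.63 on the log2 scale, to 2.52 FPKM in labelled KO against 1.6 FPKM in WT. Il12rb1, shared by the interleukin-12 and interleukin-23 receptors, rose by 0.45 on that scale. The gene that fell was Il7r, the interleukin-7 receptor chain, at 10.1 ± 0.45 FPKM in labelled KO and 14.8 ± 0.494 FPKM in WT (log2 fold change -0.57, edgeR adjusted p = 0.000855).

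Behind the receptors, 1 of 12 kinases and STAT factors was called, 8.33% beside the 12.7% of all tested genes. Most of the 12 had a mean count of at least 2000, where 28.3% of tested genes with replicates less than 1.5-fold apart were called. Of the rest at that count, 1.43% were called. Jak2, the kinase of Ifngr2, rose to 26 ± 0.247 FPKM in labelled KO, against 19.8 ± 0.491 FPKM in WT (SD, n = 3 each; log2 fold change 0.38, edgeR adjusted p = 0.000689). Stat6, which transmits the signal of Il4ra, read 67 ± 0.278 FPKM in labelled KO and 67.1 ± 1.35 FPKM in WT and was not called (edgeR adjusted p = 0.645).

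Of 18 genes that restrain these receptors, 3 were called higher and 2 lower in labelled KO (median log2 fold change 0.01), 27.8% called beside 12.7% of all tested genes. Among tested genes with a mean count of at least 2000, 28.3% were called where replicates lay less than 1.5-fold apart. Of the rest at that count, 1.43% were called. Socs3, which blocks gp130 signalling, rose to 49.0 ± 1.42 FPKM in labelled KO, against 36.2 ± 0.566 FPKM in WT (SD, n = 3 each; log2 fold change 0.42, edgeR adjusted p = 0.000619). Socs1, which blocks the interferon gamma receptor, rose to 3.13 FPKM in labelled KO, against 2.14 FPKM in WT. Usp18, which binds the Ifnar2 product and damps it, fell by 0.56 on the log2 scale (edgeR adjusted p = 0.000174). Cish was also called higher, by 0.65. Socs1, Socs3, Usp18 and Cish are counted again in the lists of target genes below, so those shares are not separate from this one. Ptpn1, a phosphatase of Janus kinases, fell by 0.10, a call lost in 4 of 6 fits with 1 library left out (WT replicate 1, WT replicate 3, KO replicate 1 or KO replicate 2; edgeR adjusted p 0.0596 to 0.0621). Of 6 genes for shedding and turnover of receptors, 2 rose, 33.3% beside 12.7% of all tested genes: Adam10 (0.24) and Adam17 (0.12), proteases that cleave the interleukin-6 receptor from the cell surface.

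Genes downstream of the receptors were counted in lists, each named for a signal that induces its genes. Other signals can induce them too, and the activity of the signals was not tested. Like the lists above, these were chosen with earlier results of these data known. Their shares are therefore counts and not tests of enrichment. Of 13 interferon gamma targets, 10 rose in the libraries labelled KO, 76.9% beside the 7.01% of all tested genes called higher, and none was called lower by edgeR, DESeq2 or limma, and an unadjusted p under 0.05 was reached by 12 higher and 0 lower (median log2 fold change 0.53). They included Gbp2 (0.46), Gbp5 (0.79), Igtp (0.52), interferon-induced GTPase genes with close paralogs that can share reads, and Ciita (0.79), the activator of MHC class II genes. Of 14 type I interferon targets, 8 fell in labelled KO, 57.1% beside the 5.67% of all tested genes called lower, and none was called higher over all 6 libraries by edgeR (median -0.17), among them Usp18, Bst2 (-0.31), Rsad2 (-0.39) and Ifit2 (-0.20). DESeq2 and limma each called 1 of these 14 higher, as did edgeR without KO replicate 1 (1 higher and 7 lower), and 1 was higher at an unadjusted p under 0.05.

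Of 11 STAT3 targets, 6 rose and 1 fell in labelled KO (median 0.22), 63.6% called beside 12.7% of all tested genes. Nfil3, a transcription factor induced by interleukin-10, rose to 32.4 ± 0.747 FPKM in labelled KO, against 20.2 ± 0.322 FPKM in WT (SD, n = 3 each; log2 fold change 0.67, edgeR adjusted p = 0.000193). Socs3 and the kinase gene Pim1 (0.22) also rose, and the repressor gene Etv3 fell by 0.20; leaving out WT replicate 2 ended that call (edgeR adjusted p = 0.0532). Of 11 tested STAT6 targets, 3 were called higher and 1 lower in labelled KO (median 0.45), 36.4% called beside 12.7% of all tested genes. That median is the value of Ccl24, which had counts of 14 to 47 and was not called. The targets with the highest FPKM, Mrc1, Chil3, Clec10a and Ptgs1, were at -0.46, 0.26, -0.28 and 0.05.

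The STAT6 targets that were called did not move one way. Mrc1, which encodes the mannose receptor, fell to 44.3 ± 1.08 FPKM in labelled KO, against 60.0 ± 0.229 FPKM in WT (SD, n = 3 each; log2 fold change -0.46, edgeR adjusted p = 0.000132). Chil3, a chitinase-like secreted protein, rose by 0.26 on the log2 scale and Arg1, arginase, by 1.19, at 0.923 FPKM in labelled KO and 0.398 FPKM in WT. Cish rose by 0.65, at 1.16 FPKM in labelled KO and 0.73 FPKM in WT. These 3 rises each lost the call in 4 or 5 fits with 1 library left out. That of Chil3 was lost without WT replicate 1, WT replicate 3, KO replicate 1 or KO replicate 3 (edgeR adjusted p 0.0523 to 0.0682), that of Arg1 without any 1 library but KO replicate 3 (0.0522 to 0.0691), and that of Cish without any 1 library but KO replicate 2 (0.0609 to 0.1). Retnla, another alternative activation gene, had a count of 0 in every library.

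**Figure D5:**
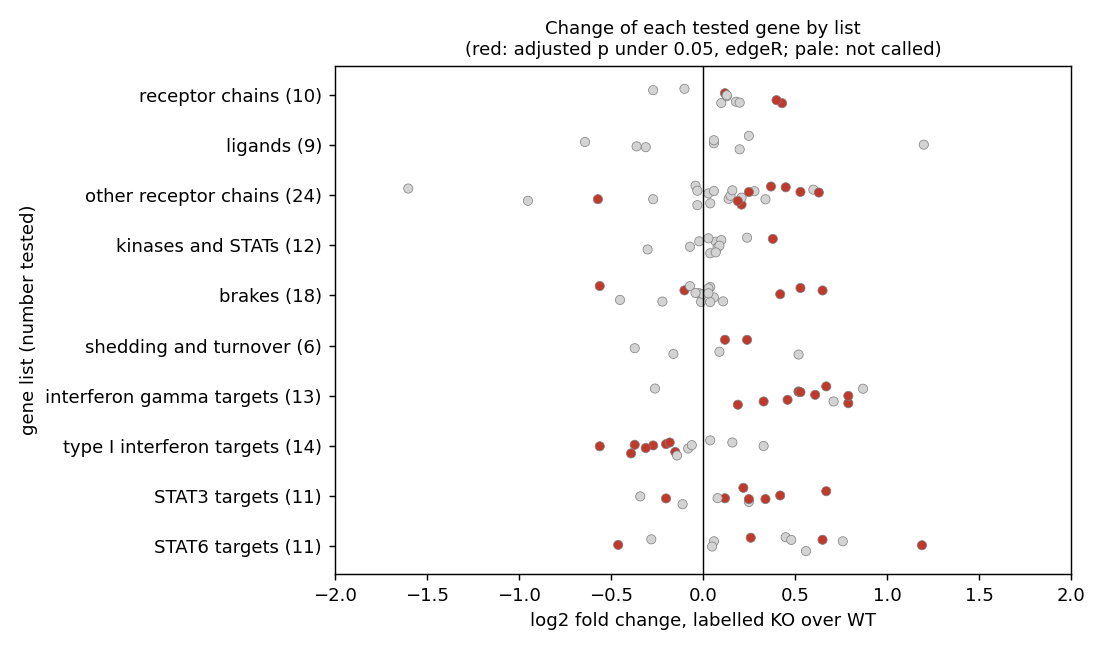
Each point is a tested gene, placed by the log2 ratio of labelled KO to WT, by list from top to bottom with the number tested; red marks an adjusted p under 0.05. Interferon gamma targets lie mostly above 0 (10 called) and type I interferon targets mostly below (8 called); Cntf, a ligand gene with counts of 0, 0 and 1 in WT, lies outside the axis.

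The genes whose profile over the 6 libraries lay nearest to that of each called chain were found as the smallest root mean square difference of centred log2 FPKM, among 9121 other tested genes with a mean of at least 2 FPKM. Nearest to Il4ra were Hk2, a hexokinase (difference 0.023), and Arid1a, a chromatin remodelling subunit (0.027). Nearest to Il13ra1 were Klra2, an inhibitory lectin-like receptor (0.010), and Gm12250 (0.022), and nearest to Ifnar2 were Ly86 (0.0074), which partners the Toll-like receptor relative Cd180, and Dlgap4 (0.009). Ly86 lost its call without any 1 library (edgeR adjusted p 0.0616 to 0.14) and Dlgap4 was not called. Hk2 was at 23.0 ± 0.527 FPKM in labelled KO and 17.0 ± 0.907 FPKM in WT, and Klra2 at 35.7 ± 0.345 FPKM in labelled KO and 26.9 ± 0.624 FPKM in WT (SD, n = 3 each).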

How the data were processed

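RNA from 6 libraries was analysed, 3 labelled Mettl3-/- (KO) and 3 WT, from 1 deposited table. The submitters' processing notes name HISAT2 2.0.4, StringTie 1.3.4d, cutadapt 1.9 and build mm10; settings, annotation release and strandedness are not given there. Per the file headers, the authors deposited FPKM per gene and library. The estimated counts that the authors deposited beside them are whole numbers with differing totals. Genes with a count of 0 carry 0.0001 FPKM. Count and FPKM of a chain gave the same length in all libraries to within 0.689%, so they are not independent measures. All value columns were used.

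The main test ran on estimated counts in R 4.3.3 with edgeR 4.0.16 (TMM, filterByExpr with a minimum count of 10 and total of 15, glmQLFit, glmQLFTest), adjusted over 16256 genes by Benjamini-Hochberg. SE came from the F statistic and limits from the test's t distribution. Script functions were tested on simulated data. Alternatives were DESeq2 1.42.0, limma 3.58.1 on log2(FPKM + 0.1), (FPKM + 1) and (FPKM + 0.01), other filters and factors, a 1.2-fold minimum, a replicate block and each library left out; for the other genes named they were added after the data were seen. Ratios were compared by exact permutation. Exonic overlap used GENCODE M21, where all 10 chains have the deposited coordinates; symbols were matched in the table. Because strandedness is not known, a gene's reads cannot be separated from those of an antisense gene over shared bases.

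The genes named are the 10 chains, Mettl3, up to 4 called genes of each list by adjusted p, and profile neighbours. Il2rg, Il13ra2, Il10, Il4, Il13, Stat6, Retnla, Lyz2, Pf4, Ebi3, Xist, the Y-linked genes and the markers at 0 were named after their values were seen. So were Ifng, Ifnb1, Il27, Osm, Csf2rb, Ccl24, Clec10a, Ptgs1, Csf1r, Fcgr1, Mertk, Spi1, Adgre1 and S100a9. For these, values in the alternatives are not given. Members and lists were chosen with earlier results of these data known.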

Additional observations from a re-analysis of the deposited data

How the results depend on the processing

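Il4ra (log2 fold change 0.41 to 0.45) and Il13ra1 (0.38 to 0.43) kept their calls in all 15 alternatives and Ifnar2 in 8 of 15. Ifnar1 was called, lower, without WT replicate 3 and Il10ra without KO replicate 2. Whether the replicate numbers pair the libraries is not stated. Deviations of same-numbered libraries correlated at -0.0205, -0.0144 and 0.0153, and those of differently numbered libraries at -0.0115 to 0.0264. These values cover all tested genes, low counts included, so they cannot settle pairing. With a replicate block Ifnar2 lost its call (edgeR adjusted p = 0.0995). That block left 1012 genes called over the table, 3 brakes, 1 shedding gene, 2 STAT3 targets, 1 STAT6 target and 0 ligands. A minimum of 1.2-fold left 1208 genes, 5 other receptor chains, 0 shedding genes, 5 type I interferon targets and 3 STAT3 targets. DESeq2 called 2787 genes, 2 kinases and STATs, and 0 ligands, since Cntf had no adjusted p there; with a mean FPKM of at least 1, which drops Cntf, 0 ligands were called as well. At an unadjusted p under 0.05, edgeR had 1 ligand higher and 2 lower, and 2 shedding genes higher and 0 lower.

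Leaving out 1 library, with fewer samples, gave 1244 to 1339 genes over the table, 1 to 2 kinases and STATs, 3 to 4 brakes, 4 to 6 STAT3 targets and 1 to 3 STAT6 targets. Over the same fits Il10rb ran from -0.09 to 0.36, Mettl3 from -0.07 to 0.11 (below 0 without KO replicate 3, at -0.06, or WT replicate 3, at -0.07), the log2 ratio difference of Ifngr1 over Ifngr2 from -0.08 to 0.04 and that of Il10ra over Il10rb from -0.32 to 0.21. The causes were not tested. The lowest count of a chain in a library was 2360, and no alternative varied depth.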

Other observations

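Transcripts of both sex chromosomes were present in every library. Kdm5d, a Y-linked histone demethylase gene, read 0.584, 0.577 and 0.607 FPKM in the libraries labelled KO and 0.928, 0.855 and 0.891 FPKM in WT (log2 fold change -0.61, edgeR adjusted p = 0.00252), beside Xist, which was not called. The other Y-linked genes read were Eif2s3y (-0.46, edgeR adjusted p = 0.0226), Uty (-0.31, edgeR adjusted p = 0.049) and Ddx3y, which was not called (-0.19, edgeR adjusted p = 0.184). The call of Uty was lost without any 1 library (edgeR adjusted p 0.0712 to 0.137) and that of Eif2s3y without KO replicate 1, KO replicate 3, WT replicate 1 or WT replicate 3 (0.0705 to 0.0803). Of 528 tested X-linked genes, 18 were called higher and 38 lower in labelled KO, 10.6%, with a median log2 fold change of -0.04, and Il13ra1 was among those higher. Whether the cultures pooled male and female cells in different shares was not tested.

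Of the 419 genes with a mean count of at least 2000 and replicates at least 1.5-fold apart, 267 spread so in labelled KO and 282 in WT. The library farthest from its group's median was labelled KO replicate 1, 2 or 3 for 80, 86 and 101 genes and WT replicate 1, 2 or 3 for 113, 84 and 85, so WT replicate 3, low for Il10rb, was not the one most often apart.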
